A study of Arabidopsis thaliana with 4 samples.

Results

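The comparison described here sets 14-day-old hdp3-2 seedlings of Arabidopsis thaliana against the wild-type strain Col-0. It covers the genes that the authors tested and that reached at least 1 FPKM, a transcript level in fragments scaled for transcript length and library size, in either genotype. There were 19118 such genes of 33557 in the deposited table, of which 19042 lie in the nuclear genome, 59 in the plastid and 17 in mitochondria. Another 1059 genes were tested but stayed below 1 FPKM, and 13380 had no test. The members nearest to that minimum stood at 1.0 and 0.99925 FPKM in the higher genotype. Over all 19118 genes 3.23% were called by the test used below, 1.36% higher and 1.87% lower in hdp3-2. The account below takes the nuclear genes by function and sets aside 263 heat shock, chaperone and clock genes, of which 35 rose and 9 fell, which leaves 18779 genes.

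The hdp3-2 mutant, in the Col-0 background, carries an allele of HDP3, which the study describes as a transposase of the Harbinger type that the plant has co-opted and that engages trihelix DNA-binding factors. The study also sequenced asil1-2, a mutant of the trihelix factor ASIL1, and asks whether HDP3 and ASIL1 act on overlapping genes. Each mutant is represented by 2 libraries from whole seedlings. Seeds were held for 3 days at 4 °C, and plants grew at 22 °C under days of 16 h light and 8 h dark, on agar (0.8%) plates of 1/2 Murashige and Skoog salts that held sucrose at 2%. Each RNA came from 100 mg of material. The Col-0 libraries belong to another deposit, and the sources used here do not give their number, harvest or growth, so a difference in growth or sequencing run between the deposits cannot be told apart from the genotype. The labels do not say what kind of lesion hdp3-2 is, nor whether a mutant's libraries are from plants grown apart. The p-values in the tables therefore measure only the spread between these samples, and that spread may be technical.

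Harbinger elements are DNA transposons whose own proteins come as a pair, a transposase-like nuclease and a Myb-like DNA-binding protein. In Arabidopsis the related host proteins HDP1 and HDP2 are known from a complex with the histone acetyltransferase IDM1 that keeps certain loci free of DNA methylation. Trihelix factors are plant DNA-binding proteins first known for binding GT elements of light-regulated promoters, and ASIL1 is known as a repressor of seed maturation genes in seedlings.

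The verbs rose, fell and was called stand for an authors' Cuffdiff q under 0.05. Each log2 fold change is hdp3-2 over Col-0 in FPKM, and its standard error (SE) was derived from the authors' statistic. The tables give no level per library, so each value below is 1 number per genotype. Of the 18779 genes, 556 were called (2.96%), 208 of them higher (1.11%) and 348 lower (1.85%) in hdp3-2. The median log2 fold change of all 18779 genes was -0.07, the quartiles were -0.28 and 0.12, and 40.6% of values were positive. Changes were mostly moderate. At least a 2-fold change was reached by 82 of the higher genes and by 139 of the lower genes, and at least a 4-fold change by 9 and 11. The median log2 fold change was 0.89 among genes that rose and -0.93 among genes that fell, and the smallest called values were 0.62 and -0.63. When the authors' statistic was read as a standard normal value, only 43 genes were higher and 65 lower, because the z value implied by their p was 1.42 times the statistic at the median. The SE behind their p would be smaller by about that factor at the median, so the printed SE may be too large.

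**Figure D1:**
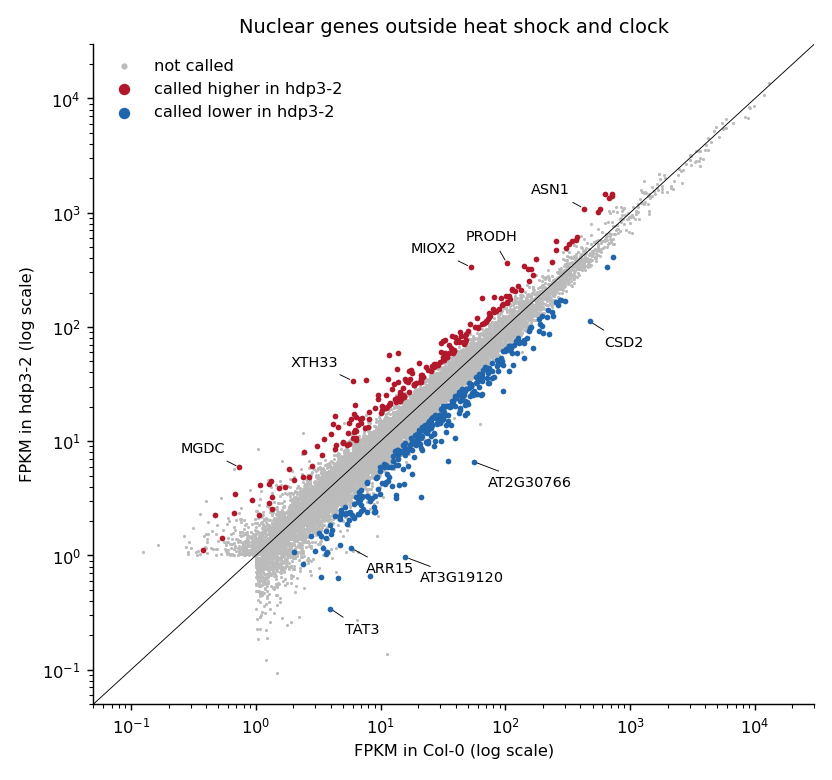
FPKM of each nuclear gene outside heat shock and clock in Col-0 (x axis) and hdp3-2 (y axis), both on log scales, without the 27 genes listed at 0 in a genotype. Red points are the genes called higher and blue points those called lower; the line marks equal levels. AT3G19120 lies farthest below the line among called genes, at 15.8 FPKM in Col-0 and 0.968 FPKM in hdp3-2.

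Whole-seedling RNA mixes all organs, and fewer cells of a type cannot be told apart from less RNA per cell. Of the green shoot markers, 6 of 6 were measured and 0 were called by Cuffdiff (0 at an unadjusted p under 0.05), with summed levels of 68196 FPKM in Col-0 and 60542 FPKM in hdp3-2. The 8 root markers summed to 1143 and 958 FPKM, and 0 were called by Cuffdiff or had an unadjusted p under 0.05. Seed markers summed to 3.27 and 4.47 FPKM over 9 genes, with 2 at 0 in both genotypes, flower markers to 6.86 and 6.5 FPKM over 8 genes, and pollen markers to 0.108 and 0.271 FPKM over 3 genes. Organelle transcripts moved with the genotype. Of 59 plastid genes 15 rose and 0 fell with a median log2 fold change of 0.95, and of 17 mitochondrial genes 2 rose and 0 fell with a median of 1.68. The part of this shift and of the heat shock genes in the changes below was not tested. HDP3 is paired with no locus in the tables or the reference annotation used here, so its own transcript gives no check of the label. ASIL1 (AT1G54060) was not called in hdp3-2, at a log2 fold change of 0.30 ± 0.29 (SE).

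Genes of copper-dependent superoxide dismutation were among the highly expressed genes that fell. These enzymes turn superoxide into hydrogen peroxide and oxygen, in the cytosol through CSD1 and in the chloroplast through CSD2, and CCS is the chaperone that loads them with copper. All 3 transcripts are known targets of the microRNA miR398, which accumulates when copper is short. The mature miR398b-3p and the stretch of each transcript that best matches its complement without gaps are shown because the transcripts fell together. Capitals in the microRNA mark the seed (bases 2 to 8). Capitals in the transcripts mark every letter that pairs with the microRNA over its whole length, within the seed or outside it. All are written 5′ to 3′ from RefSeq, TAIR10.1.
miR398b-3p: tGTGTTCTcaggtcacccctg
CSD1: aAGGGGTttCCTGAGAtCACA
CSD2: tgcGGGTGACCTGgGAAacat
CCS: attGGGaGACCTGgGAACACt
The miRNA lies at chr5:4691107-4691127 on the plus strand. The CSD1 stretch, in the 5′ UTR, matches 17 of 21 letters and is split by an intron between chr1:2827177-2827685, the CSD2 stretch at chr2:12015572-12015592 matches 13 in coding sequence, and the CCS stretch at chr1:4267521-4267541, on the minus strand, matches 15 in coding sequence. Stretches with at most 6 mismatches, the number in CCS, were present in 222 of 18309 transcripts. Those with at most 4, the number in CSD1, were present in 4, and CSD2 had 8. Such a match alone does not mark a site, and whether these stretches are the target sites was not tested. AT3G15640, chosen after its value was seen and with 15 matching letters in its 5′ UTR, had a log2 fold change of -0.03.

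In the authors' deposited table, CSD2 (AT2G28190) stood at 474 FPKM in Col-0 and 112 FPKM in hdp3-2, with a Cuffdiff q of 0.00374. The log2 fold change of CSD2 was -2.08 ± 0.28 (SE). CCS (AT1G12520) was at 116 and 46.5 FPKM, with a log2 fold change of -1.32 ± 0.28. CSD1 (AT1G08830) was at 243 and 125 FPKM, with a log2 fold change of -0.96 ± 0.29. All 3 were lower in hdp3-2, CSD2 by 4.22-fold. The other 8 members of the list of copper-zinc superoxide dismutases and copper delivery, a list drawn up after values had been seen, were not called. Among them the peroxisomal CSD3 had a log2 fold change of -0.38, the iron-dependent FSD1, known to replace the copper enzymes when copper is short, 0.35, the copper importers COPT1 and COPT2 0.06 and 0.08, the copper-sensing regulator SPL7 -0.14, and the plastocyanins PETE1 and DRT112 0.04 and -0.23. The precursor of miR398c was at 0.371 FPKM in Col-0 and 0.709 FPKM in hdp3-2 and was not called (Cuffdiff q = 0.929 in the authors' deposited table). Mature microRNAs were not measured.

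Cytokinin response was the hormone list with the most calls. Cytokinin signals through histidine kinases and phosphotransfer proteins to type-B response regulators, which bind DNA and switch on the type-A response regulators, and these in turn dampen the signal. Of 14 members of the cytokinin list 4 fell and 0 rose, beside 1.85% of all genes called lower. The list median was -0.53, beside -0.07 for all genes. The 4 were type-A response regulators. ARR15 (AT1G74890) was at 5.82 FPKM in Col-0 and 1.16 FPKM in hdp3-2, with a log2 fold change of -2.33 ± 0.71 (SE). ARR7 (AT1G19050) went from 58.3 to 25.7 FPKM (-1.18 ± 0.30), ARR6 (AT5G62920) from 56.0 to 27.7 FPKM (-1.02 ± 0.30) and ARR9 (AT3G57040) from 64.7 to 33.5 FPKM (-0.95 ± 0.28). In the list of type-A regulators alone, drawn up after values had been seen, the 5 other members measured had negative values without a call, from -0.30 in ARR3 to -1.76 in ARR16. ARR17 was below 1 FPKM in both genotypes. The 250 bases before the annotated start of ARR7 (chr1:6579315-6579564) and ARR15 (chr1:28133026-28133275), both on the minus strand, are printed with the core letters that type-B regulators bind, AGATT on either strand, in capitals.
ARR7: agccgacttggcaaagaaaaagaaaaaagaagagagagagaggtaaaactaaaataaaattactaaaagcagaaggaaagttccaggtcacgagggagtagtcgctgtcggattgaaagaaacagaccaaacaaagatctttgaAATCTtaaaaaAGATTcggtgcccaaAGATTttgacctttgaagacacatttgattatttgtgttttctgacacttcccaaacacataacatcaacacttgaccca
ARR15: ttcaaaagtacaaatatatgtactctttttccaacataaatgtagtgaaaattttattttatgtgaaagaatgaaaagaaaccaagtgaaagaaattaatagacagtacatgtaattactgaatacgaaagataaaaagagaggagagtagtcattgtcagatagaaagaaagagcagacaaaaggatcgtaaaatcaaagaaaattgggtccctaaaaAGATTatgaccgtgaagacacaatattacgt
This window held 3 such cores in ARR7 and 1 in ARR15, the latter beginning 31 bases before the start. Of the windows of all 18309 protein-coding genes, 62.4% hold the core, and so do 62.6% of those of the 337 protein-coding genes that fell, which is close to the share over all genes.

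Other hormone lists held fewer called genes than the cytokinin list, and their counts are read beside 2.96% called over all 18779 genes. The auxin list had 2 of 20 members lower, the repressors IAA14 (-0.80) and IAA17 (-0.66), and 0 higher. Among 58 SAUR genes, small auxin-responsive growth genes, 4 fell and 1 rose. AT2G21210 went from 26.7 to 9.02 FPKM (-1.56 ± 0.38) and AT4G38840 had a log2 fold change of -1.19 ± 0.33, while AT1G17345 went from 2.43 to 8.02 FPKM (1.72 ± 0.54). Of 18 gibberellin genes only the responsive GASA14 rose (0.73), and of 12 ethylene genes EBF2, an F-box protein that removes the regulator EIN3, rose (0.68) and the synthesis enzyme ACS6 fell (-0.85). Of 13 brassinosteroid genes 0 were called by Cuffdiff, 2 had an unadjusted p under 0.05, and the list median was 0.04. In the list of water and abscisic acid response, the calcium-binding RD20 (-1.03) and the dehydrin LTI30 (-0.75) fell, and 1 of all 15 values was positive.

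Genes of cell wall loosening moved both ways. Expansins loosen the wall without cutting it, and xyloglucan endotransglucosylases (XTH) cut and rejoin the xyloglucan that ties cellulose fibrils. Of 33 genes in the list of both, 5 rose and 6 fell, beside 1.11% and 1.85% of all genes. The 6 that fell were alpha-expansins. Of 17 alpha-expansins measured, a list drawn up after values had been seen, 8 values were positive and the other 11 genes were not called, from -0.33 in EXPA17 to 1.11 in EXPA16. EXPA8 (AT2G40610) was at 106 FPKM in Col-0 and 41.2 FPKM in hdp3-2 (-1.36 ± 0.29), EXPA3 at 26.8 and 11.6 FPKM (-1.21 ± 0.33) and EXPA10 at 31.0 and 15.2 FPKM (-1.03 ± 0.33). EXPA5 (-0.88), EXPA1 (-0.79) and EXPA6 (-0.74) changed less. In the other direction, XTH33 (AT1G10550) went from 6.01 to 33.7 FPKM, a 5.61-fold rise with a log2 fold change of 2.49 ± 0.38 (SE). XTH15 (AT4G14130) went from 37.1 to 83.0 FPKM (1.16 ± 0.28), and the abundant XTH4 from 375 to 614 FPKM (0.71 ± 0.29). XTH19 (0.78) and the expansin-like EXLA2 (0.85) were the remaining genes that rose. The 24 genes found by annotation words for xyloglucan transglucosylases leave out XTH33. Of these 24 genes 3 rose, 0 fell by Cuffdiff and 1 was lower at an unadjusted p under 0.05. The difference between the enzyme classes was not tested.

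Structural wall proteins that were called mostly rose. Over all genes 1.11% were called higher and 1.85% lower. Of 41 genes annotated as glycine-rich proteins 6 rose and 1 fell, and 70.7% of their values were positive, beside 40.6% of all genes. GRP9 (AT2G05440) went from 626 to 1465 FPKM (1.23 ± 0.34), AT2G05510 from 65.4 to 179 FPKM (1.45 ± 0.29) and GRP3S (AT2G05380) from 161 to 324 FPKM (1.01 ± 0.30), and these 3 are neighbours among the measured genes of chromosome 2. GRP5 went from 5.63 to 14.3 FPKM (1.34 ± 0.47). Arabinogalactan, extensin and proline-rich wall proteins had 4 of 85 members higher and 0 lower, among them AGP16 at 307 and 491 FPKM. The wall-associated kinases WAK1 and WAK2, receptors that bind pectin, rose by 1.33 ± 0.39 and 1.07 ± 0.32. Among 103 pectin enzymes and their inhibitors 6 fell and 2 rose. AT5G62360, of the invertase and pectin methylesterase inhibitor family, went from 13.8 to 58.7 FPKM (2.09 ± 0.33), and the pectin lyase-like gene AT1G60590 from 12.3 to 4.06 FPKM (-1.60 ± 0.34). Of 9 primary wall cellulose genes 0 were called by Cuffdiff, with 3 higher at an unadjusted p under 0.05 and a median of 0.29. Of 14 secondary wall genes 0 were called by Cuffdiff, with 1 lower at an unadjusted p under 0.05 and a median of -0.27.

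MIOX2 (AT2G19800) rose most after MGDC among the called genes, at a far higher level. It encodes a myo-inositol oxygenase, which opens the inositol ring to make glucuronic acid, a wall sugar precursor. Its level in the authors' deposited table was 52.9 FPKM in Col-0 and 334 FPKM in hdp3-2 (Cuffdiff q = 0.00374). The log2 fold change of MIOX2 was 2.66 ± 0.29 (SE), a 6.33-fold rise.

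Several abundant genes of carbon and nitrogen salvage rose. Dark and sugar starvation switch on genes that break down amino acids, raffinose sugars and branched-chain carbon skeletons, and sugar represses them. Of 21 sugar starvation and sugar transport genes 4 rose and 0 fell. These counts and those of the next list are read beside 1.11% of all 18779 genes called higher and 1.85% called lower. DIN10 (AT5G20250), of the raffinose synthase family, went from 713 to 1467 FPKM (1.04 ± 0.38), the hexose importer STP1 (AT1G11260) from 575 to 1079 FPKM (0.91 ± 0.32), SEN1 (AT4G35770) from 549 to 1022 FPKM (0.90 ± 0.30), and BCAT2, a branched-chain aminotransferase, from 12.3 to 28.8 FPKM (1.23 ± 0.44). The regulatory trehalose-phosphate synthases TPS8 to TPS11, also sugar-responsive, had values from -0.13 to 0.13, and bZIP1 of -0.36, none of them called. In the list of amino acid breakdown, drawn up after values had been seen, 7 of 20 genes rose and 0 fell. PRODH (AT3G30775), the mitochondrial enzyme that starts proline breakdown, went from 103 to 362 FPKM, with a log2 fold change of 1.81 ± 0.29 (SE). The threonine aldolase THA1 went from 6.07 to 17.2 FPKM (1.50 ± 0.33) and MCCA, a subunit of the leucine-degrading methylcrotonyl-CoA carboxylase, from 32.8 to 76.4 FPKM (1.22 ± 0.29). SSADH (1.08), formate dehydrogenase FDH (0.85) and glutamate dehydrogenase GDH2 (0.68) also rose. Of the 13 members not called, P5CDH, the next enzyme of proline breakdown, had a value of -0.07 and IVD, of leucine breakdown, 0.57.

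Nitrogen assimilation moved both ways, with 2 of 21 genes higher and 2 lower, beside 1.11% and 1.85% of all genes. ASN1 (AT3G47340), the dark-induced asparagine synthetase, went from 427 to 1089 FPKM (1.35 ± 0.34), while its light-induced relative ASN2 went from 61.6 to 37.1 FPKM (-0.73 ± 0.28). NIA2 (AT1G37130), the main nitrate reductase, fell from 303 to 169 FPKM (-0.84 ± 0.30). The windows before the starts of PRODH (chr3:12451557-12451806) and ASN1 (chr3:17441432-17441681), both on the minus strand, are shown for elements known from these promoters' regulation by bZIP factors. Capitals mark ACTCAT, the proline-responsive element, in PRODH and CACGTG, the G-box, in ASN1, each searched on both strands.
PRODH: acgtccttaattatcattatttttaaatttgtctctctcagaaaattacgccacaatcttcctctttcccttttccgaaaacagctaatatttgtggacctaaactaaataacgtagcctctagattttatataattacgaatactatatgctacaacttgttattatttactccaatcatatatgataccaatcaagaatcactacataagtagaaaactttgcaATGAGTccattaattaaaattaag
ASN1: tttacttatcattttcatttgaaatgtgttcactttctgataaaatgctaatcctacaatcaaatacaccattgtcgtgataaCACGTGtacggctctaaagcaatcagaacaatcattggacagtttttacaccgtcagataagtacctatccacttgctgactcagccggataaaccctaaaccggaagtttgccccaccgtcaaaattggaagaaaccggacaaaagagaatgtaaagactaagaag
PRODH held 1 ACTCAT on the opposite strand, beginning 24 bases before the start, and ASN1 held 1 CACGTG, 167 bases before it. ACTCAT is present in 11.9% of all 18309 windows and in 15.9% of those of the 201 protein-coding genes that rose, and CACGTG in 7.26% and 8.46%. The differences between these shares were not tested.

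Several genes of sulfur limitation and of potassium and sodium transport fell. The LSU genes are small proteins induced when sulfur is short, and DES1 releases sulfide from cysteine. LSU3 (AT3G49570) went from 27.2 to 9.96 FPKM (-1.45 ± 0.46), DES1 (AT5G28030) from 7.01 to 2.76 FPKM (-1.34 ± 0.44) and LSU2 (AT5G24660) from 54.9 to 25.3 FPKM (-1.12 ± 0.33). The other 3 members of that list, drawn up after values had been seen, were not called, at -0.09 in LSU4, -0.52 in SDI1 and -0.67 in LSU1. Of the enzymes that reduce sulfate, APR1, APR2 and APR3 were at -0.51, -0.14 and -0.35 and none was called. Among 11 potassium and sodium transport genes, also listed after values had been seen, 4 fell and 0 rose, and 0 values were positive. Over all genes 1.85% were called lower and 40.6% of values were positive. HKT1 (AT4G10310), which retrieves sodium from the xylem, went from 6.11 to 2.15 FPKM (-1.51 ± 0.42), the phloem potassium channel AKT2 (AT4G22200) from 9.52 to 3.78 FPKM (-1.33 ± 0.31), and the exchangers CHX16 and CHX17 had log2 fold changes of -1.28 and -0.98. The root channel AKT1, by contrast, was at -0.16 without a call. In iron handling, FER1, the plastid iron store ferritin, went from 81.3 to 183 FPKM (1.17 ± 0.28). OPT3, a phloem transporter that relays shoot iron status, went from 43.1 to 19.7 FPKM (-1.13 ± 0.29). The other 10 of the 12 iron deficiency genes kept in the list were not called. The list had 16 entries before those whose name the reference does not give were dropped. Iron genes outside the kept list were not counted. The list median was -0.41, and 4 of the 12 values were positive. Those not called included the uptake genes IRT1 (0.88) and FRO2 (0.75) and the regulators BHLH100 (-1.28) and BHLH101 (-1.07).

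**Figure D2:**
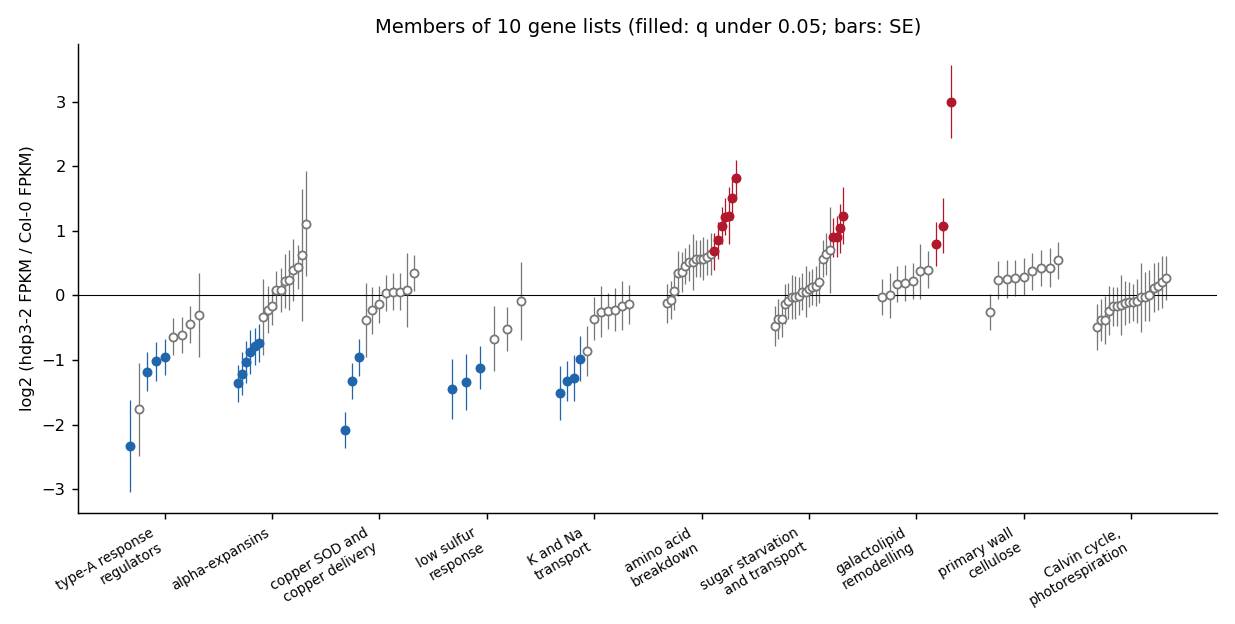
Log2 fold change (hdp3-2 over Col-0) of each measured member of 10 gene lists, ordered within each list, with bars for the SE; filled points passed q under 0.05 (red higher, blue lower) and open points did not. The type-A response regulators lie between -2.33 and -0.30, and the amino acid breakdown genes between -0.12 and 1.81.

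In a list of galactolipid and phosphate-linked lipid genes drawn up after values had been seen, 3 of 10 members rose and 0 fell, all from low levels. Of all genes 1.11% were called higher. Galactolipids replace phospholipids in plant membranes when phosphate is short. MGDC (AT2G11810), a monogalactosyldiacylglycerol synthase of the class active under those conditions, was at 0.738 FPKM in Col-0 and 5.91 FPKM in hdp3-2. Its log2 fold change of 3.00 ± 0.56 (SE) was the largest rise among called genes outside heat shock and clock, and it shrank to 1.99 on the log2(FPKM + 1) scale. The related MGD2 went from 5.36 to 9.36 FPKM (0.80 ± 0.34) and the phospholipase PLDZETA2 from 1.06 to 2.24 FPKM (1.08 ± 0.42). The housekeeping synthase MGD1 (0.19), the digalactolipid synthases DGD1 and DGD2 (-0.03 and 0.00) and the sulfolipid enzymes SQD1 and SQD2 (0.22 and 0.17) were not called.

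**Figure D3:**
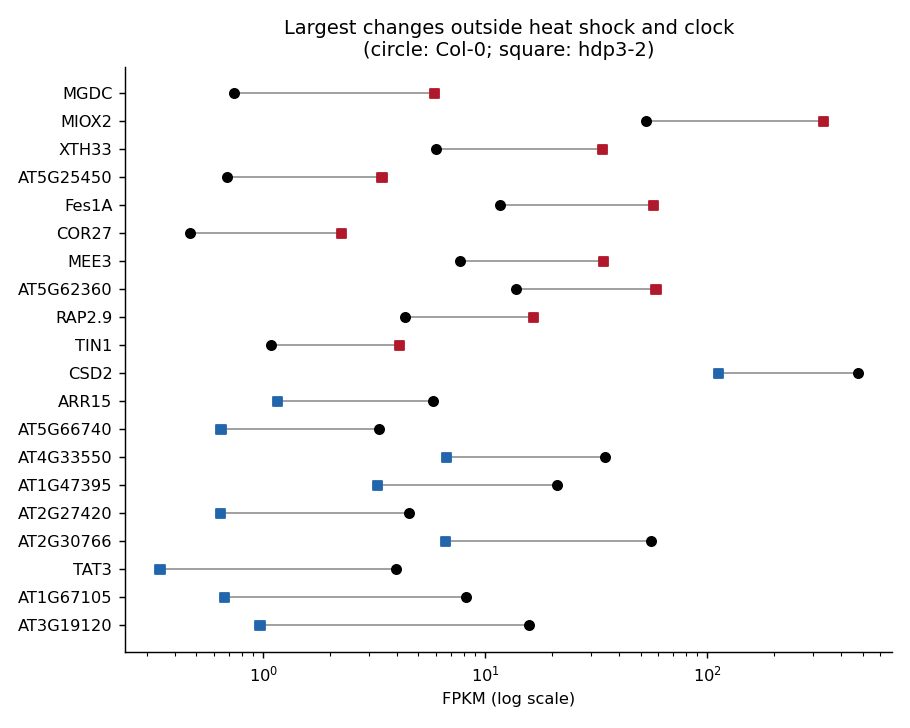
FPKM (log scale) in Col-0 (circles) and hdp3-2 (squares) of the 10 genes that rose most and the 10 that fell most outside heat shock and clock. Levels span from 0.343 FPKM for TAT3 in hdp3-2 to 474 FPKM for CSD2 in Col-0.

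The other genes among the 10 largest increases belonged to several functions. Fes1A (AT3G09350), a partner of HSP70 that the word search for heat shock genes did not take, went from 11.7 to 57.2 FPKM (2.28 ± 0.30). TIN1 (AT5G64510), induced by tunicamycin through stress of the endoplasmic reticulum, went from 1.08 to 4.12 FPKM (1.93 ± 0.51), and the other 7 genes of endoplasmic reticulum protein folding were not called. COR27 (AT5G42900), a cold-regulated gene that the list of clock genes did not take, went from 0.469 to 2.26 FPKM (2.27 ± 0.78). MEE3 (AT2G21650), a homeodomain-like protein gene, went from 7.71 to 34.1 FPKM (2.15 ± 0.41). RAP2.9 (AT4G06746), an AP2/ERF factor, went from 4.33 to 16.5 FPKM (1.94 ± 0.55). AT5G25450, whose annotation reads cytochrome bd ubiquinol oxidase, 14kDa subunit, went from 0.687 to 3.43 FPKM (2.32 ± 0.71). Among the genes with the highest levels that rose were CP29 (AT3G53460), a chloroplast RNA-binding protein, at 677 and 1341 FPKM, and AT2G15960, annotated as stress-induced, at 712 and 1390 FPKM. Among those that fell were AT1G09310, of unknown function, at 731 and 410 FPKM, AT4G29905 at 653 and 337 FPKM, and RPT2 (AT2G30520), a phototropism protein, at 279 and 173 FPKM. AT3G41762, an uncharacterized gene, was listed at 0 in Col-0 and at 1.25 FPKM in hdp3-2.

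AT3G19120 (chr3:6609412-6611059), whose annotation is PIF / Ping-Pong family of plant transposase, had the largest decrease among called genes. In the authors' deposited table it was at 15.8 FPKM in Col-0 and 0.968 FPKM in hdp3-2, with a Cuffdiff q of 0.00374, and its log2 fold change was -4.03 ± 0.50 (SE). None of the 10 measured genes on either side of it was called, with values from -1.15 to 0.32. Among 10 measured transposase-like genes it was the only call. Next came the noncoding RNA gene AT1G67105, at 8.19 and 0.667 FPKM (-3.62 ± 0.81). TAT3 (AT2G24850), a tyrosine aminotransferase known for its induction by jasmonate, went from 3.95 to 0.343 FPKM (-3.53 ± 0.78). AT2G30766, uncharacterized in the annotation, went from 55.8 to 6.62 FPKM (-3.08 ± 0.54), the papain-like protease gene AT2G27420 from 4.55 to 0.640 FPKM (-2.83 ± 0.61) and AT1G47395, also uncharacterized, from 21.1 to 3.26 FPKM (-2.69 ± 0.73). The lipid transfer protein gene AT4G33550 went from 34.6 to 6.68 FPKM (-2.37 ± 0.47) and AT5G66740 from 3.31 to 0.646 FPKM (-2.36 ± 0.73).

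Over all genes 348 of the 556 called were lower, and the transcription factor families are read beside that share. Of 108 genes that annotation words took as MYB-type factors 11 fell and 1 rose, AT2G44730 (0.82). Whether AT2G44730 is a MYB factor was not tested. Of 91 bHLH factors 6 fell and 0 rose, and of 67 homeobox factors 4 fell and 0 rose. MEE3, annotated as homeodomain-like, rose but is in neither the MYB nor the homeobox family counted here. MYB47 (-1.58 ± 0.56), MYB49 (-1.42 ± 0.42) and MYB48 (-1.26 ± 0.35) fell beside MYB29 (-1.89 ± 0.39), a regulator of aliphatic glucosinolates. Of 52 WRKY factors 1 rose and 2 fell, and of 62 NAC factors 0 rose and 1 fell. Among 61 genes that annotation words took as C2H2 zinc fingers 1 rose and 2 fell. The 2 that fell were DOF1, annotated as a DOF zinc finger, and ZFN1, annotated only as zinc finger protein 1. Neither is annotated as C2H2. Among homeobox genes ATH1 (-0.98 ± 0.30), a regulator of the shoot meristem, and HB23 (-1.15 ± 0.42) were lower. AP2/ERF factors were divided, with 3 of 115 higher and 3 lower. ESE3 (AT5G25190), an ethylene- and salt-inducible member, went from 95.7 to 27.3 FPKM (-1.81 ± 0.30) and ORA47, a jasmonate-responsive one, had a log2 fold change of -1.27 ± 0.36. Of 24 B-box proteins, regulators of light and photoperiod responses, 4 fell and 1 rose, and BBX18 changed most (15.3 to 4.24 FPKM, -1.85 ± 0.39). In light signalling HYH, the homolog of HY5, had a log2 fold change of -1.39 ± 0.35, and HY5 itself was at -0.69 without a call (Cuffdiff q = 0.0969 in the authors' deposited table). The phytochromes PHYA and PHYB (0.08 and -0.25) and PIF4 (0.17) were not called.

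Calls in metabolic enzyme families are read beside 1.11% of all 18779 genes called higher and 1.85% called lower. Differences between families were not tested. Cytochrome P450s had 9 of 151 members lower and 2 higher, with a family median of -0.24. CYP79F1, of aliphatic glucosinolate synthesis, went from 39.4 to 10.7 FPKM (-1.88 ± 0.30), CYP81D11 from 30.3 to 9.99 FPKM (-1.60 ± 0.60) and CYP71A25 from 5.55 to 2.03 FPKM (-1.45 ± 0.42), whereas CYP82C4 went from 1.32 to 4.49 FPKM (1.77 ± 0.52). Genes annotated as GDSL lipases had 7 of 51 members lower and 1 higher. RXW8 (-1.39 ± 0.31) fell most, but it is placed here by annotation words alone, and whether it encodes a lipase was not tested. Next came AT5G45950 (-1.01 ± 0.29). All 3 glutathione S-transferases called of 48 fell, GSTU20 from 188 to 106 FPKM. SAM-dependent methyltransferases had 3 of 113 members higher and 2 lower, and the UDP-glycosyltransferases (93 genes), peroxidases (55) and 2-oxoglutarate oxygenases (75) each had 1 higher and 1 lower. In the phenylpropanoid core, PAL4 (-0.97) and 4CL1 (-0.80) fell, 0 rose, and 1 of all 15 values was positive. Further calls were LACS2 of cutin synthesis (-0.79), the chlorophyll b enzyme CAO (-0.75), the marneral synthase MRN1 (-1.24) and, in the cell cycle, the ribonucleotide reductase subunit TSO2 (-0.96) and the inhibitor KRP1 (-0.69).

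Receptor and immune genes that were called moved in both directions, and their counts are read beside 1.11% of all genes called higher and 1.85% lower. FLS2 (AT5G46330), the receptor for bacterial flagellin, went from 5.53 to 11.9 FPKM (1.11 ± 0.30), while the lectin receptor kinases AT2G29220 (-1.49 ± 0.39) and AT2G29250 (-1.50 ± 0.55), neighbours on chromosome 2, fell. Of 109 NLR immune receptors 2 rose and 2 fell, at a median of 0.00. The list of camalexin and pattern-triggered immunity had 1 of 14 genes higher and 1 lower, with a median of -0.35 and 3 positive values. CYP71A12 of camalexin synthesis fell (-1.17 ± 0.38). CYP71A13 went from 1.20 to 0.122 FPKM without a call (Cuffdiff q = 0.108 in the authors' deposited table). PAD3, at 1.02 and 0.953 FPKM, was not called. Calcium-binding proteins of the calmodulin-like and EF-hand type had 4 of 69 members higher and 4 lower, from CML41 (-1.72 ± 0.51) to AT1G21550 (1.18 ± 0.40).

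Large housekeeping groups held few calls. Of 296 cytosolic ribosomal protein genes 1 fell and 0 rose (median -0.17, with 21.3% of values positive and, at an unadjusted p under 0.05, 29 lower and 3 higher), of 383 pentatricopeptide repeat genes 1 rose and 1 fell (median 0.02, with 18 lower and 11 higher at that p), and of 37 proteasome subunit genes 0 were called by Cuffdiff and 0 had an unadjusted p under 0.05 (median -0.02). Among 41 histone genes 2 fell, HTB11 (-0.64) and AT5G65360 (-0.70), 4.88% of values were positive, with a median of -0.42, and 18 histone genes were lower at an unadjusted p under 0.05, beside 1647 of all 18779 genes. By Cuffdiff the Calvin cycle and photorespiration list had 0 of 18 genes called and a median of -0.11, starch metabolism 0 of 16 and 0.04, autophagy 0 of 16 and -0.02, and fatty acid synthesis 0 of 12 and -0.09. At an unadjusted p under 0.05 these lists held 0, 6, 1 and 0 genes. Of 34 functional lists, 14 held no called gene. SR splicing factors had 1 call in 19, SR45A (0.82), and 84.2% of their values were positive.

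The share of genes called differed by level. Among the 2641 genes that stayed below 3 FPKM 0.454% were called, and among the 1581 genes at 100 FPKM or more 6.20%. In the latter class 52 rose and 46 fell, while between 3 and 10 FPKM 23 rose and 67 fell. By chromosome the share called ran from 2.68% on chromosome 5 to 3.69% on chromosome 2. A single exon was annotated for 2657 of all 18309 protein-coding genes, for 35 of the 201 that rose and for 84 of the 337 that fell.

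**Figure D4:**
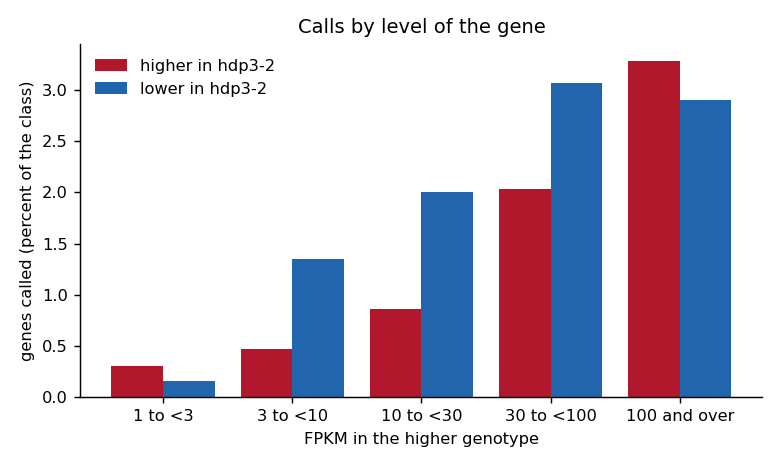
Share of nuclear genes outside heat shock and clock that were called higher (red) and lower (blue) in hdp3-2, by the FPKM of the genotype in which the gene was higher. The lowest class holds 2641 genes with 8 higher and 4 lower, and the highest 1581 genes with 52 higher and 46 lower.

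The asil1-2 comparison uses the same Col-0 libraries, so the values of both mutants share any deviation of that wild type, and they are only set side by side. In asil1-2, 2.80% of its 18911 nuclear genes outside heat shock and clock were called higher and 5.99% lower. Of the 10 largest increases in hdp3-2, 3 were called higher in asil1-2, MIOX2 (2.26), XTH33 (1.76) and AT5G62360 (1.03). MGDC was at 0.90, TIN1 at -0.23, MEE3 at -0.08 and Fes1A at 0.35 there, without a call. Of the 10 largest decreases 9 were called lower, among them AT2G30766 (-2.92) and AT2G27420 (-3.11), and AT3G19120 was not called, at 0.37. CSD2 and CCS were at -0.74 and -0.76 in asil1-2, both called, and CSD1 at -0.20, not called. The log2 fold changes of ARR6, ARR7, ARR9 and ARR15 in asil1-2 were -1.16, -1.31, -0.76 and -1.41, all called. PRODH was at 1.75 and ASN1 at 1.01, both called, and CYP82C4 was at -2.33, called in the opposite direction to hdp3-2. Whether any of these values differs between the mutants was not tested.

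**Figure D5:**
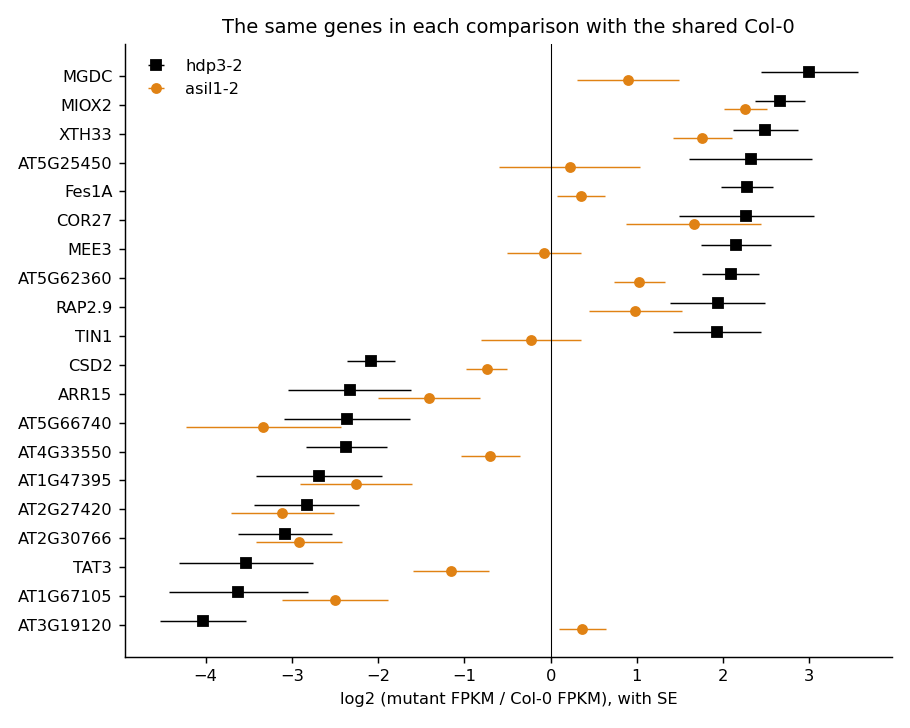
Log2 fold change over the shared Col-0 of the 20 genes that changed most in hdp3-2, with SE bars, in hdp3-2 (black squares) and asil1-2 (orange circles). AT3G19120 stands at -4.03 in hdp3-2 and at 0.37 in asil1-2, and AT2G30766 at -3.08 and -2.92.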

How the data were processed

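RNA from whole seedlings was sequenced in 2 libraries per mutant. Per the submitters' processing notes, TopHat2, Cufflinks, Cuffdiff and deepTools were used with the genome build TAIR10; versions and options are not given. The deposited FPKM values are 1 per gene and genotype, made by the authors over the libraries. The deposited score is the authors' test statistic, and the deposited p-value and q-value are theirs, per the file headers. The smallest p is 5e-05 and the smallest q in the hdp3-2 table is 0.00374. The tables hold no counts, so depth and the precision it gives are unknown, and a test between libraries could not be made.

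Log2 fold changes were computed from FPKM, because spreadsheet software had damaged part of the deposited fold column, and SE is the fold change divided by the statistic. Genes listed at 0 get no fold. Members had a test status of OK and at least 1 FPKM in a genotype. Heat shock and clock genes were set aside by list and by the annotation words heat shock, HSP, chaperone and DnaJ, copper chaperones excepted. The lists (41, with 655 entries, of which 25 were dropped because the reference does not give the locus that name) and 58 families found by words in the annotation were chosen with earlier results of these data known; 7 further lists and some family patterns were set after values were seen. Families can miss members that are annotated in other words, and can take in genes of another type. The genes named were the 10 largest increases and 10 largest decreases, the 5 of highest FPKM per direction, up to 3 listed at 0, and the 4 called members with the largest change in each list or family with at least 3 calls; other genes named were chosen after their values were seen. Of 33557 loci, 32809 are in the RefSeq annotation (TAIR10.1), and all 28626 nuclear loci compared overlap it on the same chromosome. Of the 556 called genes, 47 overlap another gene's locus, and the split of reads between such genes is uncertain. Those named in the text include AT2G30766, CYP81D11, CSD1, EBF2, WAK2, FER1, MCCA, BCAT2, AT5G25450, AT3G41762, AT5G64572 and AT2G07709. Positions count from 1. Alternatives are in the closing section. Values were computed in Python 3.11.15 (NumPy 2.4.6, pandas 2.3.3, SciPy 1.17.1) and drawn with matplotlib 3.10.9. The counting was tested on simulated data.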

Additional observations from a re-analysis of the deposited data

How the results depend on the processing

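The number of genes higher in hdp3-2, 208, became 107 at a q under 0.01, 82 with at least a 2-fold change, 96 with a 2-fold change after the median of -0.07 was subtracted, and 43 when the authors' statistic was read as a standard normal value. The number of genes lower in hdp3-2, 348, became 185, 139, 121 and 65 under the same alternatives. With a stricter minimum of 10 FPKM the numbers of genes higher in hdp3-2 and genes lower in hdp3-2 were 177 and 277, without a minimum 210 and 350, without genes that share a locus span 184 and 325, and with heat shock and clock genes kept 243 and 357. Recomputing the adjustment gave the same counts. Leaving out the copy of the mitochondrial genome on chromosome 2 and ribosomal RNA, an alternative chosen after seeing the data, gave 205 and 348. Of the 151 named genes with a fold change, all kept their direction with pseudocounts of 1 and 0.1 and after centring, and 44 were no longer called at a q under 0.01.

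No paired analysis was possible because the deposited tables hold 1 value per genotype and no values per library; for the same reason no library was left out. Among genes below 3 FPKM 0.454% were called, and among those at 100 FPKM or more 6.20%.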

Other observations

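Several further kinds of gene were counted, and some of their members also belong to groups above. Of 1216 genes that annotation words took as uncharacterized, 34 fell and 13 rose, beside 348 and 208 of all 18779 genes. Their median log2 fold change was -0.15, beside -0.07. Those that rose include RAP2.9 (1.94) and RAP2.10 (0.86), which are also counted among the AP2/ERF factors. Among 231 noncoding RNA genes 6 fell and 2 rose, from AT1G67105 (-3.62) to AT5G64572 (1.02 ± 0.37), which went from 59.7 to 121 FPKM. The MATE efflux transporters had 2 of 39 members higher, AT2G04050 (1.71) and AT3G23550 (1.64), and 0 lower.

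Genes called next to each other among the measured genes made 29 pairs, 24 of which moved the same way and 5 opposite ways. Over all adjacent measured genes with a fold change, called or not, 54.2% of pairs had the same sign, and the difference was not tested. They included the P450 genes CYP71A25 and CYP71A22 (-1.45 and -0.78), the cellulose synthase-like genes CSLB03 and CSLB04 (-0.91 and -0.94) and the opposed pair SGT1A and CORI3 (0.85 and -1.46). The gene for 18S ribosomal RNA, AT3G41768, went from 254 to 561 FPKM (1.14 ± 0.31). AT2G07709 and AT2G07717, in the stretch of chromosome 2 that copies the mitochondrial genome, rose by 1.40 ± 0.44 and 1.57 ± 0.46 beside the mitochondrial median of 1.68, and their reads cannot be told apart from those of near-identical mitochondrial genes.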
